A study of Mus musculus with 29 samples.

Results

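The genes described here are the collagen, laminin and integrin genes of the mouse, taken by their symbols from the table of 24062 genes measured by RNA-seq. A gene was a member if its symbol was that of a numbered collagen chain, a laminin alpha, beta or gamma chain, or began as the integrin subunits do. This gave 86 members, of which 44 were collagens, 11 laminins, 18 integrin alpha subunits and 9 integrin beta subunits. The other 4 (Itgb1bp1, Itgb1bp2, Itgb3bp and Itgbl1) matched by name but are not integrin subunits, and they are counted apart. No measured value was used to choose them. They were followed through 15 RNA-seq libraries of 5 sorted retinal populations, 3 per population, and through the open chromatin of 12 ATAC-seq libraries, 2 from each of these populations and from green cones, which entered the fit but none of the comparisons.

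Bipolar cells are the interneurons that carry the signal of rods and cones to the inner retina. ON types respond to light onset and OFF types to light offset. The pan-bipolar (pan-BC) RNA-seq libraries came from Otx2-GFP+/- mice at postnatal day (P) 44 to 47. ON bipolar (ON-BC) and OFF bipolar (OFF-BC) cells were sorted from Otx2-GFP+/- mice that also carried Grm6-YFP+/+, a reporter driven by the promoter of the ON bipolar glutamate receptor. Libraries of the same replicate number were taken at P43, P48 and P42. The ON-BC and OFF-BC sorts probably lack the ON type BC5D, which expresses little Grm6, and rod bipolar cells make up most of ON-BC. OFF-BC were sorted a second time. Rods were sorted from Nrl-eGFP mice at P56. The population here called blue cones consisted of the photoreceptors of mice that carry the same reporter but lack Nrl (Nrl-/-), also at P56, and is a surrogate for native blue cones. Both photoreceptor sets came from an earlier study of the laboratory. Between bipolar cells and photoreceptors, cell class, study, age and mouse line therefore cannot be told apart. For ATAC-seq, the bipolar mice were at P42 to P46, and by the labels those of pan-BC carried Grm6-YFP as well as Otx2-GFP. The rods, blue cones and green cones of the ATAC-seq libraries were at P56, and the green cones also came from the earlier study.

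Collagens are secreted as triple helices. Type IV collagen forms the sheet-like network of basement membranes, where it lies against a second network made of laminins, each a cross of an alpha, a beta and a gamma chain. Integrins are alpha-beta pairs in the plasma membrane that bind these proteins outside the cell and the actin cytoskeleton inside it. In the retina the best known of these basement membranes are the inner limiting membrane, the sheath of the vessels and Bruch's membrane, none of which is made mainly by bipolar cells or photoreceptors.

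A library held 12329548 to 26266746 counted reads (median 15569580). Values are normalized counts, that is, reads per gene divided by 1 size factor per library. Marker genes were highest in the population of their label. The summed level of 10 bipolar markers was 118800 to 166500 in the bipolar libraries, 8272 to 9265 in rods and 32870 to 38070 in blue cones, and that of 7 rod markers was 1792000 to 2465000 in rods and 3580 to 41850 in bipolar libraries. The 7 cone markers summed to 1434000 to 1658000 in blue cones. In the bipolar libraries their sums were 44640 to 70810 (pan-BC), 5104 to 5877 (ON-BC) and 29870 to 104000 (OFF-BC). The OFF-BC libraries were uneven, with Opn1sw at a mean of 21530 ± 29700 (SD, n = 3). Since collagens and laminins are abundant in vessels, vascular markers were also summed. Endothelial markers (10 genes) reached 23.2 to 61.7 in the 9 bipolar libraries, 180 to 235 in rods and 46.6 to 92.6 in blue cones. Pecam1 made up most of the rod sum (mean 127.1 ± 58, SD, n = 3). Kdr (36.3 ± 17.6) and Flt1 (20.5 ± 13.7) were also highest in rods. Cdh5, Cldn5, Tie1 and Emcn had means of 5.53 or less in every population, and Erg had no read. Pericyte and smooth muscle markers (9 genes) summed to 367 to 409 (pan-BC), 270.3 to 425 (ON-BC), 173 to 236 (OFF-BC) and 19.5 to 55.5 in the photoreceptors. Most of this was Notch3, whose mean was 270.1 ± 10.1 (SD, n = 3) in pan-BC and 268 ± 61.6 in ON-BC but 125 ± 30.9 among the OFF-BC libraries. Rgs5 had means of 75.5 ± 18.6 (pan-BC), 43.1 ± 14.4 (ON-BC) and 29.2 ± 14.3 (OFF-BC), and Des of 18.5 ± 5.86, 10.4 ± 2.91 and 33.5 ± 10.2. Pdgfrb stood at 11.7 ± 0.57 in pan-BC, and Cspg4 had no read in pan-BC or ON-BC. The 6 fibroblast markers summed to no more than 46.9 in any library. In bulk libraries, fewer cells of a type and less RNA per cell cannot be told apart.

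Many members were low. No read of Col22a1 or Itgb2l was counted in any of the 15 libraries, and 33 members had a mean below 10 normalized counts in every population. The 48 members with enough reads to test were compared by limma against a log2 fold change of 1, with 1 added to each normalized count before the logarithm and p-values adjusted over all 14024 genes tested. The 38 others never exceeded 35.5 normalized counts in a library. A member that passed this filter through 1 population alone had to be low elsewhere, so that the counts below describe the members and support nothing further. Of the 48, 32 were called in at least 1 of 4 comparisons, 4 of them in 1 comparison, 16 in 2 and 12 in 3. The matching share over all genes is not given here. In pan-BC against rods alone 43.1% of all genes were called, and against blue cones 36.2%, so that many genes of any kind were called at least once.

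In pan-BC against rods, 20 members were higher and 5 lower, where 27.4% and 15.8% of all genes were called (43.1% in either direction). The median log2 fold change was 1.53 over the tested members and 0.21 over all tested genes. In pan-BC against blue cones, 19 were higher and 4 lower, where 22.5% and 13.7% of all genes were called (36.2% in either direction), with medians of 1.62 and 0.16. These comparisons share the pan-BC libraries. In ON-BC against OFF-BC, 8 members were higher and 6 lower, where 2.80% and 3.43% of all genes were called (6.23% in either direction), with medians of 0.47 and -0.02. In rods against blue cones, 5 were higher and 5 lower, where 4.63% and 11.3% of all genes were called (15.9% in either direction), with medians of 0.06 and -0.00.

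Each population was dominated by a few members. The summed level of the 44 collagens was 7397 to 8478 normalized counts in rods, 4548 to 5022 in ON-BC, 4044 to 4692 in pan-BC, 1765 to 2089 in OFF-BC and 1206 to 1344 in blue cones. That of the 27 integrin subunits was highest in blue cones (3701 to 6009) and lowest in OFF-BC (1395 to 1429). The 11 laminins together reached 114 to 291 in any library. Collagen and integrin sums of ON-BC and OFF-BC did not overlap, whereas those of the laminins did (163 to 291 in ON-BC and 169.9 to 256 in OFF-BC).

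**Figure D1:**
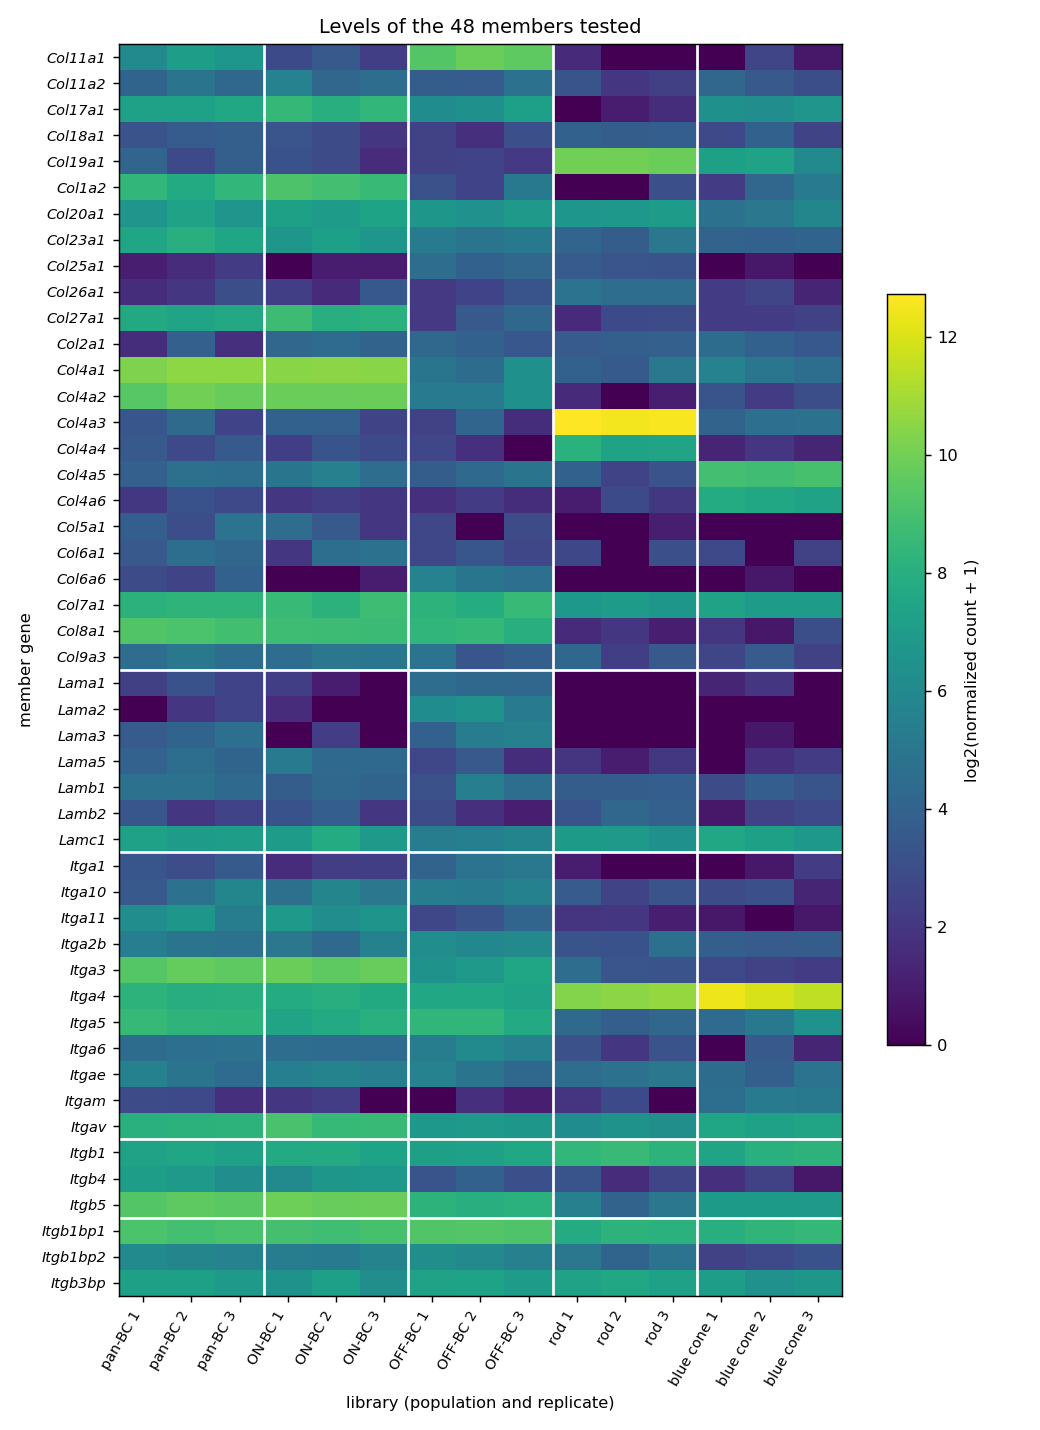
Levels of the 48 tested members (rows, grouped as collagens, laminins, integrin alpha subunits, integrin beta subunits and other integrin-named genes) in the 15 libraries (columns), as log2(normalized count + 1) on a color scale. The brightest cells are Col4a3 in rods (5836 to 6754) and Itga4 in blue cones (2895 to 5422), and most rows are bright in only some of the populations.

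Type IV collagen, the network collagen of basement membranes, has 6 chains encoded by 3 head-to-head gene pairs, and each pair was high in different libraries. Col4a1 and Col4a2 were high in pan-BC and ON-BC, Col4a3 and Col4a4 in rods, and Col4a5 and Col4a6 in blue cones. OFF-BC had little of any chain.

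Col4a1 (8:11198423-11312889, minus strand, GRCm38) and Col4a2 (8:11312805-11449287, plus strand) encode the chains of the most widespread type IV collagen. Col4a1 was counted at 1232, 1483 and 1510 (pan-BC), 1391, 1434 and 1398 (ON-BC), 30.2, 21.6 and 83.9 (OFF-BC), 48.9, 31.1 and 22.9 (blue cones), and 14.6, 11.3 and 33.5 (rods). The pan-BC and ON-BC libraries overlapped each other, and all 6 lay above every other library. The log2 fold change was 6.23 (SE 0.42, adjusted p = 5.76e-09) in pan-BC against rods, 5.38 (SE 0.42, adjusted p = 1e-07) in pan-BC against blue cones and 5.17 (SE 0.42, adjusted p = 1.86e-06) in ON-BC against OFF-BC. Col4a2 was counted at 945, 899 and 918 (ON-BC), 694, 1038 and 879.7 (pan-BC), 35.8, 37.2 and 83.9 (OFF-BC), 9.03, 3.79 and 7.4 (blue cones), and 1.94, 0 and 1.08 (rods). It was again high in the same 6 libraries, and OFF-BC lay above both photoreceptor populations. Col4a2 differed by a log2 fold change of 8.88 (SE 0.41, adjusted p = 1.77e-11) in pan-BC against rods, by 6.86 (SE 0.41, adjusted p = 1.92e-09) in pan-BC against blue cones and by 4.23 (SE 0.41, adjusted p = 1.91e-05) in ON-BC against OFF-BC. Per kb of exon, the ratio of Col4a1 to Col4a2 was 1.39 to 1.73 in pan-BC and 1.43 to 1.55 in ON-BC. On the same scale, the mean level of Col4a1 was 212 in pan-BC and 212 in ON-BC, and that of Col4a2 135 and 143. The exons of the pair overlap by 22 bp on opposite strands, which is 0.332% of the exon length of Col4a1. Beside the difference between ON-BC and OFF-BC stand the means of the pericyte and smooth muscle markers. Notch3 was at 268 for ON-BC against 125 for OFF-BC, Rgs5 at 43.1 ± 14.4 against 29.2 ± 14.3, and Pdgfrb at 7.25 ± 9.05 against 3.31 ± 4.81. Des went the other way (10.4 ± 2.91 in ON-BC against 33.5 ± 10.2). Acta2, Kcnj8, Myh11 and Abcc9 had means of 6.79 or less, and Cspg4 was at or near 0 in both. Their part in the result was not tested.

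Col4a3 (1:82586921-82722059, plus strand) and Col4a4 (1:82448419-82587034, minus strand) belong to the network of the kidney glomerulus and a few other sites. Col4a3 was counted at 6754, 5836 and 6159 (rods), 15.8, 24.3 and 25.9 (blue cones), 9.57, 20.2 and 4.89 (pan-BC), 14.5, 13.7 and 5.13 (ON-BC), and 4.47, 16.8 and 2.21 (OFF-BC). No library outside the rods exceeded 25.9, and the 3 rod libraries stood far above all of them. Its log2 fold change was -9.15 (SE 0.56, adjusted p = 6.91e-10) in pan-BC against rods and 8.11 (SE 0.56, adjusted p = 1.48e-08) in rods against blue cones. At 726 normalized counts per kb of exon in rods, Col4a3 was the highest member in any population on that scale. Col4a4 was counted at 274, 161 and 173 (rods), 10.6, 6.05 and 11 (pan-BC), 4.13, 8.82 and 6.16 (ON-BC), 5.59, 2.4 and 0 (OFF-BC), and 1.5, 3.04 and 1.48 (blue cones). Rods were again above every other library, at a far lower level than for Col4a3. Per kb of exon, the ratio of Col4a3 to Col4a4 in rods was 22.4, 32.9 and 32.3. Col4a4 differed by -4.31 (SE 0.57, adjusted p = 4.68e-05) in pan-BC against rods and by 6.08 (SE 0.57, adjusted p = 1.2e-06) in rods against blue cones.

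Col4a5 (X:141475370-141689236, plus strand) and Col4a6 (X:141165403-141474095, minus strand) are the X-linked pair. Col4a5 was counted at 490.4, 452 and 526 (blue cones), 29.9, 45.1 and 22.6 (ON-BC), 13.8, 25.2 and 23.3 (pan-BC), 12.3, 19.2 and 28.7 (OFF-BC), and 14.6, 5.12 and 8.65 (rods). Blue cones were above all other libraries. The log2 fold change was -4.53 (SE 0.40, adjusted p = 6.26e-07) in pan-BC against blue cones and -5.65 (SE 0.40, adjusted p = 4.4e-08) in rods against blue cones. Col4a6 was counted at 227, 189 and 158 (blue cones), 3.19, 8.07 and 6.12 (pan-BC), 0.97, 6.15 and 3.24 (rods), 3.1, 3.92 and 3.08 (ON-BC), and 2.24, 3.6 and 2.21 (OFF-BC). It was high in the same libraries, with every library outside the blue cones at 8.07 or less, and differed by -4.88 (SE 0.47, adjusted p = 1.54e-06) in pan-BC against blue cones and by -5.61 (SE 0.47, adjusted p = 4.22e-07) in rods against blue cones. Per kb of exon, Col4a5 exceeded Col4a6 in blue cones by a ratio of 2.21, 2.45 and 3.39.

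**Figure D2:**
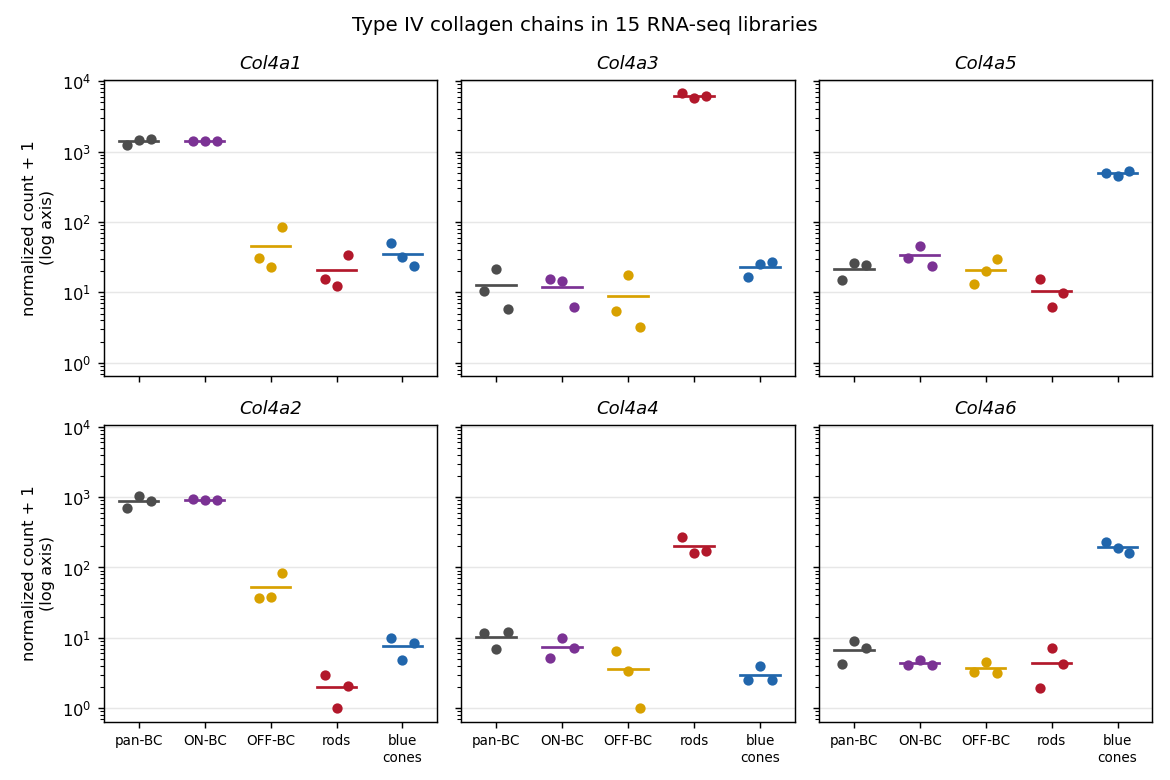
Normalized count plus 1 (log axis) of the 6 type IV collagen chains, with 1 point per library and a bar at the mean of the 3 libraries of each population. Top and bottom panels of a column are the head-to-head pairs, which are high in pan-BC and ON-BC (Col4a1 and Col4a2), in rods (Col4a3 and Col4a4) and in blue cones (Col4a5 and Col4a6).

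Of the other collagens, 7 (Col8a1, Col1a2, Col27a1, Col23a1, Col11a1, Col5a1 and Col6a6) were higher in pan-BC than in both photoreceptor populations, and Col19a1 was lower than in both. Over all genes, 27.4% were higher and 15.8% lower than in rods, and 22.5% higher and 13.7% lower than in blue cones. The share of all genes called in both comparisons, which use the same pan-BC libraries, is not given here. Col8a1 encodes a short-chain collagen of basement membranes such as that of the corneal endothelium. It was counted at 614, 563 and 469 (pan-BC), 439.6, 426 and 413 (ON-BC), 334, 360.4 and 254 (OFF-BC), 3.01, 0.759 and 7.4 (blue cones), and 1.94, 3.07 and 1.08 (rods). All 9 bipolar libraries were at 254 or more and all 6 photoreceptor libraries at 7.4 or less. Its log2 fold change was 7.55 (SE 0.42, adjusted p = 2.6e-10) in pan-BC against rods and 7.13 (SE 0.42, adjusted p = 1.51e-09) against blue cones. The difference between ON-BC and OFF-BC was 0.44 (SE 0.42, adjusted p = 1).

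Of the fibrillar collagens, which form the banded fibrils of connective tissue, Col1a2 was counted at 575, 486 and 393 (ON-BC), 337, 219.9 and 338 (pan-BC), 3.76, 17.5 and 38.5 (blue cones), 7.82, 4.81 and 34.2 (OFF-BC), and 0, 0 and 7.57 (rods). Pan-BC and ON-BC did not overlap the other populations. Its log2 fold changes were 7.16 (SE 0.83, adjusted p = 3.15e-06) in pan-BC against rods, 4.28 (SE 0.83, adjusted p = 0.00205) in pan-BC against blue cones and 5.30 (SE 0.83, adjusted p = 0.00114) in ON-BC against OFF-BC. Col1a1, whose chain makes type I collagen with that of Col1a2, was not tested and never exceeded 5.16 in a library, and Col3a1, the type III chain of connective tissue, never exceeded 2.45. Among the fibroblast markers, Dcn and Lum were at or near 0 as well, but the others were not uniform. Pi16 had means of 9.48 ± 2.52 in ON-BC and 7.37 ± 7.39 in pan-BC, and of 2.125 or less elsewhere. Fbln1 was low, with its highest mean in ON-BC (3.44 ± 5.09). Mfap5 was highest in OFF-BC (35.1 against 8.32 in ON-BC) and Pdgfra in rods (10.4). The part of fibroblasts in the Col1a2 result was not tested.

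Col27a1, a fibrillar collagen of cartilage, was counted at 421, 259.7 and 281 (ON-BC), 213, 171 and 204 (pan-BC), 3.35, 10.8 and 17.7 (OFF-BC), 1.94, 6.15 and 6.48 (rods), and 3.76, 3.79 and 4.44 (blue cones). ON-BC and pan-BC were above all other libraries. Its log2 fold change was 5.18 (SE 0.47, adjusted p = 3.9e-07) in pan-BC against rods, 5.30 (SE 0.47, adjusted p = 4.74e-07) in pan-BC against blue cones and 4.99 (SE 0.47, adjusted p = 9.21e-06) in ON-BC against OFF-BC. Col11a1, a minor fibril chain that regulates fibril width, ran the other way between the bipolar populations. It was counted at 635, 943 and 746 (OFF-BC), 66, 135 and 102 (pan-BC), 6.19, 10.8 and 4.1 (ON-BC), 0, 5.31 and 0.74 (blue cones), and 1.94, 0 and 0 (rods). OFF-BC lay above pan-BC, pan-BC above ON-BC, and both photoreceptor populations at 5.31 or less. The log2 fold change was -6.66 (SE 0.60, adjusted p = 2.75e-06) in ON-BC against OFF-BC, 6.09 (SE 0.60, adjusted p = 6.59e-07) in pan-BC against rods and 5.46 (SE 0.60, adjusted p = 4.91e-06) in pan-BC against blue cones. Col5a1, which joins type I fibrils, had a mean of 15.99 ± 10.9 in pan-BC and no read in blue cones, which with a floor of 3 reads over the 3 libraries makes it at least 21.3-fold higher in pan-BC.

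The transmembrane collagens differ from the rest in that they stay on the cell surface. Col17a1, the hemidesmosomal collagen of skin, was counted at 359, 261 and 339.6 (ON-BC), 156, 156 and 189.6 (pan-BC), 72.7, 81.7 and 145 (OFF-BC), 82, 75.1 and 97.7 (blue cones), and 0, 1.02 and 2.16 (rods). Rods were below all other libraries, at 2.16 or less, and ON-BC above all others. Col17a1 differed by 6.50 (SE 0.36, adjusted p = 4.13e-10) in pan-BC against rods and -5.52 (SE 0.36, adjusted p = 1.96e-08) in rods against blue cones. The difference between ON-BC and OFF-BC was 1.73 (SE 0.36, adjusted p = 0.338), and that between pan-BC and blue cones 0.97 (SE 0.36, adjusted p = 0.987). Col23a1 was higher in pan-BC (mean 204 ± 38.5, SD, n = 3) than in rods (20.4 ± 10.6) and blue cones (15.5 ± 0.967), by 3.35 (SE 0.32, adjusted p = 3.25e-06) and 3.62 (SE 0.32, adjusted p = 1.45e-06). Col25a1, found first in amyloid plaques, was counted at 22.4, 14.4 and 17.7 (OFF-BC), 11.6, 9.22 and 8.65 (rods), 1.06, 2.02 and 3.67 (pan-BC), 0, 0.98 and 1.03 (ON-BC), and 0, 0.759 and 0 (blue cones). It was highest in OFF-BC and next in rods. It differed by -3.57 (SE 0.49, adjusted p = 0.000965) in ON-BC against OFF-BC and by 3.16 (SE 0.49, adjusted p = 0.00186) in rods against blue cones.

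Col19a1, a collagen of basement membrane zones that is also made by some neurons, was counted at 1048, 1024 and 918 (rods), 149.7, 159 and 68.1 (blue cones), 17, 6.05 and 13.5 (pan-BC), 8.26, 6.86 and 2.05 (ON-BC), and 4.47, 4.81 and 3.31 (OFF-BC). Rods stood above blue cones, and blue cones above all bipolar libraries. Col19a1 differed by -6.35 (SE 0.45, adjusted p = 1e-08) in pan-BC against rods, -3.27 (SE 0.45, adjusted p = 0.000271) in pan-BC against blue cones and 3.07 (SE 0.45, adjusted p = 0.00142) in rods against blue cones. Col26a1 was low everywhere and was counted at 28.1, 22.5 and 22.7 (rods), 3.35, 4.81 and 8.83 (OFF-BC), 4.13, 1.96 and 10.3 (ON-BC), 2.13, 3.03 and 7.34 (pan-BC), and 3.76, 5.31 and 1.48 (blue cones). Its rod libraries did not overlap the others. It differed by -2.42 (SE 0.56, adjusted p = 0.0262) in pan-BC against rods and by 2.59 (SE 0.56, adjusted p = 0.0388) in rods against blue cones. The first call was lost without pan-BC replicate 1, pan-BC replicate 2 or rod replicate 1 (adjusted p of 0.102, 0.0695 and 0.0713), and the other without any of the rod libraries or without blue cone replicate 1 or 3 (0.0558 to 0.183). By DESeq2 neither was called (0.0938 and 0.098), nor with library totals as the scaling (0.0759 and 0.0582), and the second was lost with no filter as well (0.0566). Col6a6, a chain of the beaded-filament collagens, was counted at 49.2, 30.04 and 24.3 (OFF-BC), 6.38, 5.04 and 14.7 (pan-BC), 0, 0 and 1.03 (ON-BC), and 0, 0.759 and 0 (blue cones), and had no read in rods. Highest in OFF-BC, it differed by -4.75 (SE 0.52, adjusted p = 4.98e-05) in ON-BC against OFF-BC. Col7a1, the anchoring fibril collagen, was present in all populations (means of 114 in rods to 366 in ON-BC) and was called in no comparison. The same held for Col20a1, with means of 38.1 in blue cones to 147 in ON-BC.

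Promoter sequences are shown for the 4 members with the largest RNA fold changes among those whose promoter holds an ATAC-seq region called between populations, in whichever direction. They are those of Col4a2 (chr8:11312555-11312854, plus strand), Col8a1 (chr16:57754688-57754987, minus strand), Col1a2 (chr6:4505368-4505667, plus strand) and the integrin Itga3 (chr11:95076665-95076964, minus strand). Each runs from 250 bases before to 50 bases after a start site in RefSeq on GRCm38.p6, which for Itga3 lies inside the gene rather than at its outermost start. Capitals mark matches, on either strand, to TAATCC (the motif of CRX and OTX2) and CANNTG (the E-box of bHLH factors), and matches may overlap.
Col4a2 promoter: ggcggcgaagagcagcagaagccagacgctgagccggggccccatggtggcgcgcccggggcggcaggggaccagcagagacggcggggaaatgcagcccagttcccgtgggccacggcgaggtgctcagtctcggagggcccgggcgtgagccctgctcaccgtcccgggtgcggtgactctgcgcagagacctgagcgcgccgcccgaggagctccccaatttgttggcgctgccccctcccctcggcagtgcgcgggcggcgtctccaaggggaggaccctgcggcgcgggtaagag
Col8a1 promoter: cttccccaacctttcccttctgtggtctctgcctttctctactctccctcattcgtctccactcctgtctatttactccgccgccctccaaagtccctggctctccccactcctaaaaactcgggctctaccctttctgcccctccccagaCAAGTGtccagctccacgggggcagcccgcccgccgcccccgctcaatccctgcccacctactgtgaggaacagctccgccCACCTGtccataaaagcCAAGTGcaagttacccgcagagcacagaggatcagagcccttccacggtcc
Col1a2 promoter: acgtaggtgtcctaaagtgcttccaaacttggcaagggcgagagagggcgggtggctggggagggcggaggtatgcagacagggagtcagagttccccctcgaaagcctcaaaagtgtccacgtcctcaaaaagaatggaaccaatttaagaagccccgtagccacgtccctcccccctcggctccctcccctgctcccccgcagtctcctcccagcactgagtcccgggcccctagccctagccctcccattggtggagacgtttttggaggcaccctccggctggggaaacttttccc
Itga3 promoter: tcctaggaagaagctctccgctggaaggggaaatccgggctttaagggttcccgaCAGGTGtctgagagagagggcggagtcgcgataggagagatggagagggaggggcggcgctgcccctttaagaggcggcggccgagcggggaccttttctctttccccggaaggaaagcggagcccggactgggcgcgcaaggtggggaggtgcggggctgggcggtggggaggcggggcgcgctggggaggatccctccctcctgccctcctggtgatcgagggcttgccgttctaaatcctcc
The Col8a1 window held 3 E-box matches and the Itga3 window 1, whereas the Col4a2 and Col1a2 windows held no match to either motif. For comparison, 72.3% of 32851 promoter windows of this length held CANNTG and 7.1% TAATCC. A match is a stretch of letters and not a shown binding site.

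Laminins had the lowest summed level of the families, and only 1 of the 11 chains passed 100 normalized counts in any library. Lamc1, the gamma chain shared by most laminins, was counted at 125, 225 and 118 (ON-BC), 188, 148 and 111 (blue cones), 156, 128 and 137 (pan-BC), 119, 112 and 82.1 (rods), and 39.1, 43.3 and 53 (OFF-BC). ON-BC lay above OFF-BC in every library, but the difference of 1.72 (SE 0.27, adjusted p = 0.114) was not called, and no comparison called Lamc1. By edgeR on the recovered reads the same contrast was called. On the per kb scale, Lamc1 stood at 15.6 over all libraries, followed by Lamb1 at 3.0 and Lama2 at 1.44.

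The alpha chains decide which receptors a laminin binds. Of the 5 alpha chains, Lama1, Lama2 and Lama3 were all lower in ON-BC than in OFF-BC, Lama4 was not tested and Lama5 was not called between them. Lama2, the alpha chain of muscle and nerve, was counted at 72.7, 90.1 and 36.4 (OFF-BC), 0, 3.03 and 4.89 (pan-BC), and 2.06, 0 and 0 (ON-BC), and had no read in rods and blue cones. OFF-BC was above all other libraries, with a log2 fold change of -5.44 (SE 0.65, adjusted p = 8.55e-05) in ON-BC against OFF-BC. Lama3, the alpha chain of epithelia, was counted at 14.5, 39.7 and 46.4 (OFF-BC), 11.7, 16.1 and 24.5 (pan-BC), 0, 3.92 and 0 (ON-BC), and 0, 0.759 and 0 (blue cones), and had no read in rods. ON-BC lay below OFF-BC without overlap, at -4.19 (SE 0.63, adjusted p = 0.00144). In pan-BC, Lama3 was at least 17-fold higher than in rods, where no read was found, and differed from blue cones by 3.87 (SE 0.63, adjusted p = 0.000647). Lama1, the alpha chain of early embryonic basement membranes, was counted at 22.4, 18 and 17.7 (OFF-BC), 4.26, 8.07 and 4.89 (pan-BC), 4.13, 0.98 and 0 (ON-BC), and 1.5, 3.04 and 0 (blue cones), and had no read in rods. It differed by -3.22 (SE 0.61, adjusted p = 0.0196) in ON-BC against OFF-BC, a call that was lost without ON-BC replicate 2 or 3 or OFF-BC replicate 1 or 2 (adjusted p of 0.0514 to 0.121) and by DESeq2 (0.216). The 3 chains were at 3.04 or less in every blue cone library, while the cone marker sums of OFF-BC lay above those of ON-BC (ranges above). Sums of 9 Muller glia markers were 2880 to 3939 in OFF-BC and 1536 to 1770 in ON-BC, with all 9 at a mean of 10 or more in both. Sox9 made up most of the difference, with means of 1400 ± 144 in OFF-BC and 25.1 ± 10.2 in ON-BC. Glul and Slc1a3 were also higher in OFF-BC, whereas Rlbp1, Aqp4, Apoe, Vim, Dkk3 and Car14 had lower means there. Sums of 6 amacrine markers were 919.8 to 1098 in OFF-BC and 327 to 479 in ON-BC. Of these 6, 5 had a mean of 10 or more in both, and Gad1 had a lower mean in OFF-BC (27.7 against 37.7). Slc6a9 made up most of the difference, with means of 566 ± 92.7 in OFF-BC and 159 ± 29.4 in ON-BC. Its means were higher still in rods (2271 ± 199) and blue cones (1476 ± 130). The sum of the amacrine markers was also highest in rods (2115 to 2448), followed by blue cones (1371 to 1600). The part of these cells in the laminin differences was not tested.

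Lama5, the alpha chain of mature basement membranes, was counted at 38.2, 19.6 and 19.5 (ON-BC), 14.9, 23.2 and 15.9 (pan-BC), 5.59, 10.8 and 2.21 (OFF-BC), 2.91, 1.02 and 3.24 (rods), and 0, 2.28 and 3.7 (blue cones). Pan-BC exceeded rods (2.53, SE 0.60, adjusted p = 0.0263) and blue cones (2.91, SE 0.60, adjusted p = 0.00983), although the first call was lost without pan-BC replicate 2 or rod replicate 2 (adjusted p of 0.0822 and 0.104) or by DESeq2 (0.0507) and the other without blue cone replicate 1 (0.0633). Of the beta chains, Lamb1 was counted at 6.77 to 42.0 and Lamb2 at 0.75 to 17.4 over the 15 libraries, and neither was called in any comparison. Lamb3, Lamc3 and Lama4 stayed at 7.34 or less.

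Most integrin subunits that were called were higher in bipolar cells, and Itga4 was lower in them than in either photoreceptor population. Of the 14 tested, pan-BC had 7 higher and 1 lower than rods (27.4% and 15.8% over all genes), and again 7 higher and 1 lower than blue cones (22.5% and 13.7%). Between ON-BC and OFF-BC, 4 were called, all higher in ON-BC (2.80% over all genes). Rods and blue cones differed in 2, both lower in rods (11.3%).

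Itga3, an alpha subunit that pairs with Itgb1 and binds laminins, was counted at 921, 756 and 863 (ON-BC), 663, 842 and 769.6 (pan-BC), 87.2, 112 and 179.9 (OFF-BC), 22.3, 9.22 and 8.65 (rods), and 6.02, 4.55 and 3.7 (blue cones). Pan-BC and ON-BC overlapped and lay above OFF-BC, and OFF-BC above the photoreceptors. Itga3 differed by 5.84 (SE 0.33, adjusted p = 5.6e-10) in pan-BC against rods, 7.06 (SE 0.33, adjusted p = 9.19e-11) in pan-BC against blue cones and 2.80 (SE 0.33, adjusted p = 0.000712) in ON-BC against OFF-BC. Itgb4, the beta subunit of hemidesmosomes, was counted at 137, 113 and 73.4 (pan-BC), 64, 106 and 108 (ON-BC), 8.94, 14.4 and 7.72 (OFF-BC), 8.73, 2.05 and 5.4 (rods), and 2.26, 4.55 and 0.74 (blue cones). Pan-BC and ON-BC were again above the other libraries. Itgb4 differed by 4.20 (SE 0.50, adjusted p = 1.6e-05), 5.06 (SE 0.50, adjusted p = 1.6e-06) and 3.05 (SE 0.50, adjusted p = 0.00792) in the same comparisons. Itgb4 shares 534 bp (8.66%) of its exons with a gene on the other strand and 55 bp (0.892%) with Galk1, also on that strand. The strand setting of the counting is not given in the sources used here. Its usual partner Itga6 did not follow it. Itga6 was counted at 40.2, 67.3 and 45.2 (OFF-BC), 21.3, 24.2 and 25.7 (pan-BC), 22.7, 20.6 and 20.5 (ON-BC), 7.76, 3.07 and 8.65 (rods), and 0, 10.6 and 1.48 (blue cones), highest in OFF-BC, and was called in pan-BC against blue cones alone (3.01, SE 0.64, adjusted p = 0.00992), a call lost without blue cone replicate 1 (adjusted p of 0.0653).

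Itga11, a collagen receptor subunit, was counted at 118, 73.5 and 96.5 (ON-BC), 75.5, 105 and 41.6 (pan-BC), 5.59, 8.41 and 16.6 (OFF-BC), 2.91, 3.07 and 1.08 (rods), and 0.752, 0 and 0.74 (blue cones). Pan-BC and ON-BC were again high. Its log2 fold change was 4.45 (SE 0.48, adjusted p = 4.35e-06) in pan-BC against rods, 5.60 (SE 0.48, adjusted p = 2.35e-07) in pan-BC against blue cones and 3.21 (SE 0.48, adjusted p = 0.0031) in ON-BC against OFF-BC. Itgav, which binds fibronectin and vitronectin and pairs with several beta subunits, was counted at 532, 362 and 387 (ON-BC), 268, 289 and 295 (pan-BC), 182, 152 and 174 (blue cones), 108, 112 and 107 (OFF-BC), and 72.8, 93.2 and 77.8 (rods). It was present in every library and highest in ON-BC, with 1.94 (SE 0.17, adjusted p = 0.000837) in ON-BC against OFF-BC and 1.80 (SE 0.17, adjusted p = 0.00048) in pan-BC against rods. Itgb5, a beta partner of Itgav, was counted at 949, 882 and 895 (ON-BC), 646, 765 and 713 (pan-BC), 297, 254 and 278 (OFF-BC), 119.6, 121 and 113 (blue cones), and 45.6, 15.4 and 32.4 (rods). No population overlapped another, in the order ON-BC, pan-BC, OFF-BC, blue cones and rods. It differed by 4.59 (SE 0.26, adjusted p = 1.25e-09) in pan-BC against rods, 2.57 (SE 0.26, adjusted p = 4.08e-05) in pan-BC against blue cones and -2.01 (SE 0.26, adjusted p = 0.00488) in rods against blue cones. The last call was lost when only these populations were fitted (SE 0.41, adjusted p of 0.154 by limma). The difference between ON-BC and OFF-BC, 1.72 (SE 0.26, adjusted p = 0.0907), was not called by limma but was called by edgeR and by DESeq2.

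Itga5, the fibronectin receptor subunit, was counted at 364, 308 and 295 (pan-BC), 335, 327 and 217 (OFF-BC), 169, 219 and 269.8 (ON-BC), 21.1, 34.2 and 91.8 (blue cones), and 20.4, 13.3 and 17.3 (rods). All bipolar libraries were above all photoreceptor libraries, and ON-BC and OFF-BC overlapped. Itga5 differed by 4.18 (SE 0.38, adjusted p = 8.73e-07) in pan-BC against rods and 2.95 (SE 0.38, adjusted p = 0.000244) in pan-BC against blue cones. Itgb1, the beta subunit that pairs with most of these alpha subunits, was counted at 338, 380 and 300.4 (rods), 172, 268 and 303 (blue cones), 217, 219.5 and 166 (ON-BC), 149.8, 154 and 195 (OFF-BC), and 159.5, 176 and 155 (pan-BC). All 15 libraries lay between 149.8 and 380, and no comparison called it (pan-BC against rods -1.04, SE 0.20, adjusted p = 0.738). Itga1, a collagen receptor subunit, was low (mean 25.5 ± 8.93 in OFF-BC and 9.22 ± 2 in pan-BC), and it was called in pan-BC against rods and against blue cones (3.01, SE 0.56, adjusted p = 0.00355 and 2.32, SE 0.56, adjusted p = 0.0453). The call against blue cones was lost without any of the pan-BC libraries or without blue cone replicate 1 or 2 (adjusted p of 0.0527 to 0.214), by DESeq2 (0.206), with TMM scaling (0.0531), with no filter (0.0533) and with only the 2 populations fitted (0.0838).

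Itga4, the alpha subunit of the receptors for fibronectin and VCAM1 that is best known from leukocytes, was the integrin subunit called lower in pan-BC than in both photoreceptor populations. It was counted at 5422, 3930 and 2895 (blue cones), 1315, 1478 and 1686 (rods), 303, 241 and 255 (pan-BC), 223, 256 and 212 (ON-BC), and 189, 187 and 160 (OFF-BC). Blue cones lay above rods and rods above all bipolar libraries, without overlap. The log2 fold change was -2.48 (SE 0.18, adjusted p = 9.8e-07) in pan-BC against rods and -3.89 (SE 0.18, adjusted p = 5.15e-10) in pan-BC against blue cones. That between rods and blue cones, -1.41 (SE 0.18, adjusted p = 0.104), was not called. Itga4 shares 166 bp (1.69%) of its exon length with the antisense gene Cerkl, which was itself counted at 684, 647 and 735 (rods), 1678, 1500 and 1254 (blue cones) and 76.7 to 88.1 (pan-BC). Reads from that overlap cannot be assigned here to one or the other. The beta partners of Itga4 are Itgb1, with 172, 268 and 303 in blue cones, and Itgb7, which was not tested and reached no more than 14.5 in a library.

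Itgam, the alpha subunit of the complement receptor of myeloid cells, was counted at 23.3, 38.7 and 34.8 (blue cones), 6.38, 6.05 and 2.45 (pan-BC), 2.91, 6.15 and 0 (rods), 3.1, 3.92 and 0 (ON-BC), and 0, 2.4 and 1.1 (OFF-BC). Blue cones were above all other libraries (-3.42, SE 0.74, adjusted p = 0.0172 in rods against blue cones). This call was lost without blue cone replicate 2, blue cone replicate 3 or rod replicate 3 (adjusted p of 0.0601, 0.0521 and 0.116), and when only the 2 populations were fitted (0.0738). Its partner Itgb2 reached 6.02, 23.5 and 35.5 in blue cones. The summed level of 9 microglia markers was 437 to 1007 in blue cones, 65.0 to 111 in rods, 24.5 to 37.9 (pan-BC), 55.9 to 60.9 (ON-BC) and 96.1 to 253 (OFF-BC), and its part in the result was not tested. The beta subunits Itgb3, Itgb6 and Itgb8 were at 5.40 or less in every library.

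**Figure D3:**
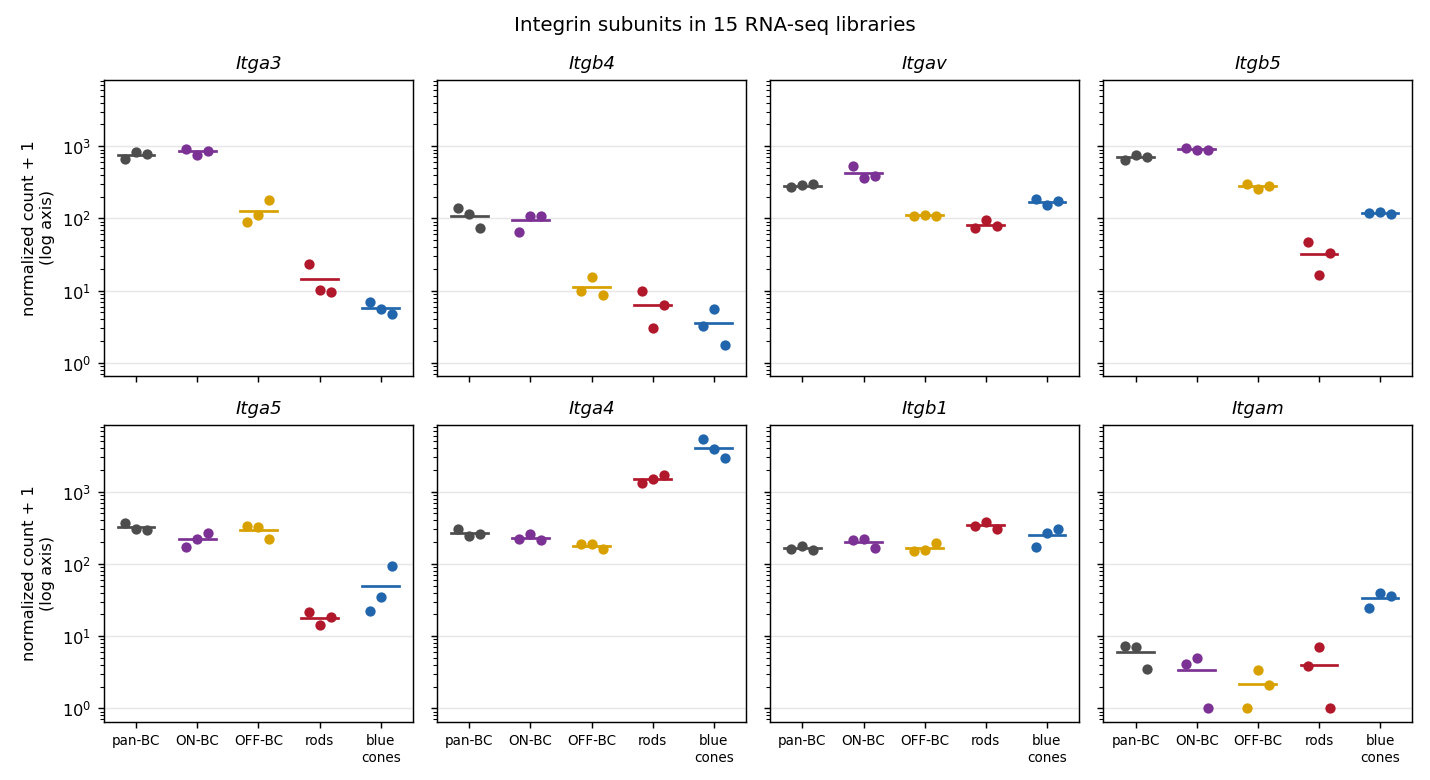
Normalized count plus 1 (log axis) of 8 integrin subunits, with 1 point per library and a bar at the mean of the 3 libraries of each population. For Itga3, Itgb4, Itgav and Itgb5 every OFF-BC point lies below every ON-BC point, Itga5 separates bipolar from photoreceptor libraries, Itga4 is highest in blue cones (2895 to 5422), and Itgb1 lies between 149.8 and 380 in all 15 libraries.

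Of the genes that carry an integrin name without being subunits, Itgb1bp1, a cytoplasmic partner of the beta 1 tail, was counted at 223 to 628 and was not called. It shares 370 bp (17%) of its exons with Asap2 on the other strand. Itgb1bp2, a muscle-type partner of the same tail, was higher in pan-BC than in blue cones (2.99, SE 0.34, adjusted p = 5.32e-05).

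ON-BC and OFF-BC were both from 1 study and matched in age by replicate number. Between them 8 members were called higher and 6 lower, where 2.80% and 3.43% of all genes were called. The 8 that were higher in ON-BC were Col1a2, Col4a1, Col27a1, Col4a2, Itga11, Itgb4, Itga3 and Itgav, with log2 fold changes of 1.94 to 5.30. The 6 that were lower in ON-BC were Col11a1, Lama2, Col6a6, Lama3, Col25a1 and Lama1, with log2 fold changes of -6.66 to -3.22. All 4 called integrin subunits were thus in the first group and all 3 called laminin chains in the second, although the call of Lama1 was lost in several alternatives. Uncalled members did not keep to this split. Without overlap of libraries, Lama5 (2.02, SE 0.60) and Lamc1 (1.72, SE 0.27) were higher in ON-BC. Itga1 (-2.57, SE 0.56), Itga6 (-1.19, SE 0.64) and Itga2b (-1.06, SE 0.41) were lower there, and Itgb5 (1.72, SE 0.26) and Itga4 (0.36, SE 0.18) higher. In pan-BC, which holds both kinds of cell, the libraries overlapped those of ON-BC for Col4a1, Col4a2 and Itga3 and lay between ON-BC and OFF-BC for Col11a1. Beside these differences, the marker sums of rods, pericytes, pigment epithelium and ganglion cells were higher in ON-BC than in OFF-BC without overlap. Those of cones, Muller glia, amacrine cells, fibroblasts and microglia were higher in OFF-BC. For Muller glia most of the excess was Sox9, while most other markers of that list had higher means in ON-BC. For fibroblasts it was Mfap5 (35.1 against 8.32) and for amacrine cells Slc6a9 (566 against 159). Slc6a9 was higher still in both photoreceptor populations. Among the pericyte markers Des was higher in OFF-BC. The part of these cell types was not tested.

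**Figure D4:**
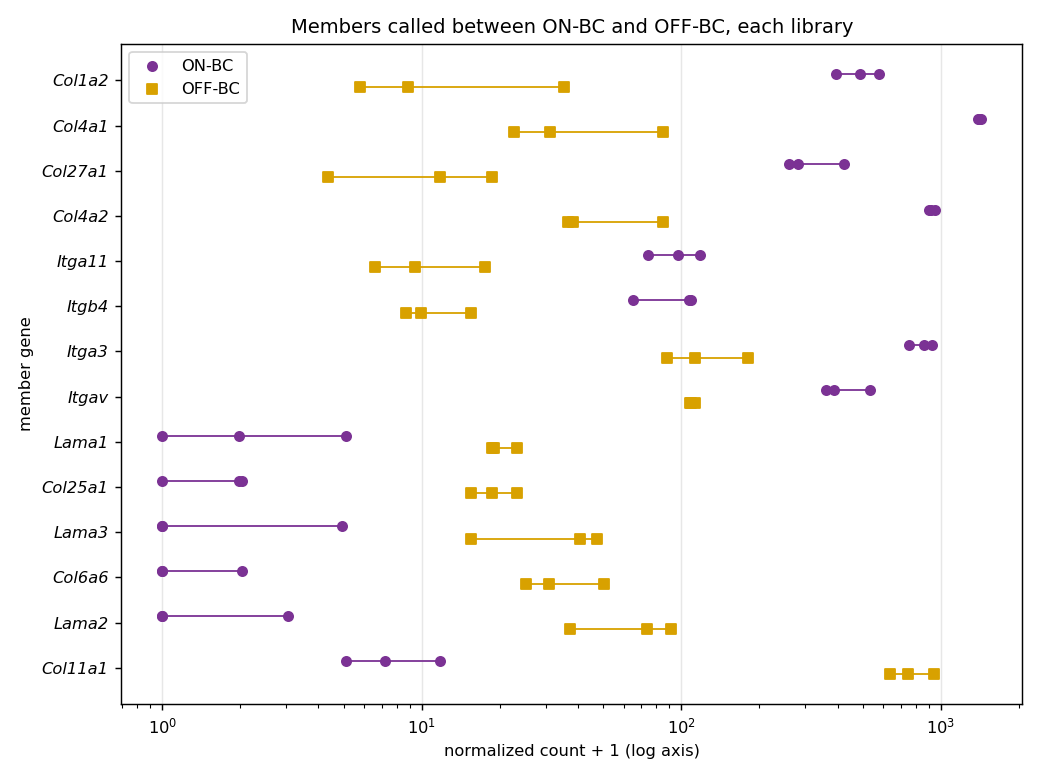
Normalized count plus 1 (log axis) of the 14 members called between ON-BC (circles) and OFF-BC (squares), with 1 symbol per library and lines joining the lowest and highest of 3. The 6 lower rows are higher in OFF-BC and the 8 upper rows higher in ON-BC, and no row has overlapping libraries.

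Genes that work with these proteins were counted in 4 lists. The counts stand beside 27.4% higher and 15.8% lower over all genes in pan-BC against rods (median log2 fold change 0.21) and 22.5% and 13.7% in pan-BC against blue cones (0.16). In ON-BC against OFF-BC these shares were 2.80% and 3.43% (-0.02), and in rods against blue cones 4.63% and 11.3% (-0.00). Of 20 laminin and basement membrane partners, 13 were tested. In pan-BC, 8 were higher and 3 lower than in rods (median log2 fold change 2.84), and 6 were higher and 1 lower than in blue cones (1.19). ON-BC against OFF-BC gave 3 higher and 2 lower (0.07), and rods against blue cones 1 lower (-0.38). Egflam, which encodes pikachurin, the photoreceptor ligand of dystroglycan at the ribbon synapse, had a mean of 12460 ± 165 (SD, n = 3) in blue cones, 5800 ± 953 in rods and 170.1 ± 48.8 in pan-BC (-6.23, SE 0.58, adjusted p = 5.43e-07 against blue cones). Smoc2, a calcium-binding matrix protein, was at 341 ± 52.7 in ON-BC and 5.93 ± 6.42 in OFF-BC (6.04, SE 0.74, adjusted p = 8.46e-05). Utrn, the dystrophin relative utrophin, was at 412 ± 32.2 and 46 ± 4.02 in the same populations (3.14, SE 0.41, adjusted p = 0.00105).

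Of the 24 collagen-making enzymes and chaperones in the table, 18 were tested. In pan-BC, 7 were higher and 1 lower than in rods (median 1.02), and 6 were higher and 2 lower than in blue cones (0.35). ON-BC against OFF-BC gave 3 higher and 2 lower (0.10), and rods against blue cones 2 lower (-0.33). P4ha2, a prolyl hydroxylase subunit, had a mean of 1249 ± 315 in pan-BC and 5.92 ± 4.25 in rods (7.63, SE 0.31, adjusted p = 5.73e-12), and Plod2, a lysyl hydroxylase, 531 ± 66.3 and 9.92 ± 10.3 (6.45, SE 0.75, adjusted p = 4.06e-06). ON-BC and OFF-BC overlapped for both. Adamts3, a procollagen N-propeptidase, was at 79.9 ± 31.8 in pan-BC and 7671 ± 1550 in blue cones (-6.61, SE 0.30, adjusted p = 8.23e-11).

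Of 26 integrin activators and adaptors, 23 were tested. In pan-BC, 6 were higher and 4 lower than in rods (median 0.31), and 6 were higher and 3 lower than in blue cones (-0.14). ON-BC against OFF-BC gave 1 higher and 2 lower (-0.07), and rods against blue cones 2 higher and 4 lower (0.12). Kank2, an adaptor that binds talin, had a mean of 306 ± 36.4 in pan-BC and 1.98 ± 1.94 in rods (6.96, SE 0.42, adjusted p = 9.34e-10). Parvb, which binds integrin-linked kinase, was at 11 ± 3.79 in rods and 1392 ± 165 in blue cones (-6.90, SE 0.26, adjusted p = 7.08e-12). The kinase gene Src was at 151 ± 14.4 in pan-BC and 1.39 ± 0.673 in rods (6.02, SE 0.26, adjusted p = 1.84e-11).

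Of the 33 other integrin ligands and collagen receptors in the table, 24 were tested. In pan-BC, 14 were higher and 3 lower than in rods (median 2.43), and 8 were higher and 7 lower than in blue cones (0.39). ON-BC against OFF-BC gave 3 higher and 1 lower (0.30), and rods against blue cones 10 lower (-1.27). Tnc, encoding tenascin-C, had a mean of 3.04 ± 1.92 in rods and 1756 ± 198 in blue cones (-8.89, SE 0.41, adjusted p = 6.32e-11), whereas Tnr, encoding tenascin-R, was at 431 ± 67.2 in pan-BC and 1.06 ± 1.08 in rods (7.85, SE 0.44, adjusted p = 2.6e-10). Reln, the secreted signal reelin, was at 6795 ± 521 in ON-BC and 153 ± 141 in OFF-BC (5.91, SE 0.64, adjusted p = 2.44e-05).

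The chromatin near the members was measured by ATAC-seq, which counts transposase cuts in open DNA, in regions of 200 bp. Of 110715 regions, 511 had a member as the gene with the nearest start site. They belonged to 82 members, and 38 lay in a promoter, which began 1000 bp before a start site and ended 100 bp after it. The nearest gene need not be the one that a region acts on. A library held 4176776 to 12345845 counted reads. In pan-BC against rods, 257 of the 503 tested regions were more open and 32 less open (57.5%), where 40.3% and 11.2% of all regions were called (51.6% in either direction). In pan-BC against blue cones, 176 were more and 28 less open (40.6%), where 28.8% and 7.13% of all regions were called (35.9%). In ON-BC against OFF-BC, 31 were more and 14 less open (8.95%), where 4.58% and 2.80% of all regions were called (7.39%). In rods against blue cones, 6 were more and 47 less open (10.5%), where 1.46% and 8.56% of all regions were called. The 45 calls between ON-BC and OFF-BC became 16 without OFF-BC replicate 1 and 22 without ON-BC replicate 2, and the 53 between rods and blue cones became 35 without blue cone replicate 1. The bipolar ATAC-seq mice were at P42 to P46, and by the labels those of pan-BC carried Grm6-YFP as well as Otx2-GFP.

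The calls of RNA and of chromatin were set side by side. Of the 82 members with a region, 71 had at least 1 called in either direction in pan-BC against rods, so that most had one whatever their RNA. The number was 61 in pan-BC against blue cones, 28 in ON-BC against OFF-BC and 28 in rods against blue cones. Of the 20 higher than in rods by RNA, 17 had at least 1 nearest region called in the same direction and 5 had one called in the opposite direction. Of the 5 lower than in rods, 1 had a region called the same way and all 5 had one called the opposite way, where 257 of 503 member regions were more open in pan-BC. Of the 19 higher than in blue cones the counts were 13 and 4, and of the 4 lower 1 and 4. Between ON-BC and OFF-BC, Col1a2, Col27a1, Col4a1 and Col4a2 of the 8 higher had a region called the same way and Itga11 had one called the opposite way. Of the 6 lower, 0 had a region called the same way, and Lama3 had one called the opposite way. In rods against blue cones, a region was called the same way for Col4a5 and Col4a6 of the 5 lower and for Col26a1 of the 5 higher, and the opposite way for Col19a1, Col25a1 and Col4a4.

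At Col1a2, the region centered at -673 bp from the start (chr6:4504846-4505045) was counted at 77.6 and 91.2 (pan-BC), 103 and 82 (ON-BC), 13.5 and 3.89 (OFF-BC), 1.56 and 2.71 (rods) and 5.18 and 7.23 (blue cones). Pan-BC and ON-BC were above OFF-BC and the photoreceptors, with 4.79 (SE 0.58, adjusted p = 1.48e-05) in pan-BC against rods and 3.46 (SE 0.58, adjusted p = 0.00724) in ON-BC against OFF-BC. The region is printed in the direction of the gene, from the reference genome GRCm38.p6, with capitals as in the promoters above.
Col1a2 upstream region: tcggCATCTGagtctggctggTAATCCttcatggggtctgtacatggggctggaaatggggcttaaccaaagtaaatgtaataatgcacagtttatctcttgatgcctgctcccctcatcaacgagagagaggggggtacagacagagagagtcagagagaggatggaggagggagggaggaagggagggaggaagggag
The Col1a2 region held 1 E-box match and 1 match to TAATCC. Of all 110715 regions, 68.7% held CANNTG and 21.8% TAATCC.

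Col4a1 and Col4a2 had 24 nearest regions in all, 10 nearest to Col4a1 and 14 to Col4a2. The region at their shared start (chr8:11312740-11312939), which overlaps the promoter window printed above, was counted at 58.4 and 50.7 (pan-BC), 71.7 and 86.4 (ON-BC), 17.5 and 7.79 (OFF-BC), 3.12 and 0 (rods) and 5.18 and 1.45 (blue cones). Pan-BC was more open there than rods (4.77, SE 0.70, adjusted p = 1e-04) and blue cones (3.83, SE 0.70, adjusted p = 0.00198). ON-BC and OFF-BC did not overlap there, but the difference of 2.64 (SE 0.70, adjusted p = 0.135) was not called. The region at -8444 bp from the start of Col4a2 (chr8:11304262-11304461), which lies inside Col4a1, was counted at 135 and 119 (pan-BC), 163 and 176 (ON-BC), 2.69 and 12.7 (OFF-BC), 0 and 0.678 (rods) and 2.59 and 2.89 (blue cones). It was called in ON-BC against OFF-BC (4.58, SE 0.68, adjusted p = 0.0018) and in pan-BC against rods (6.63, SE 0.68, adjusted p = 1.29e-06).

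**Figure D5:**
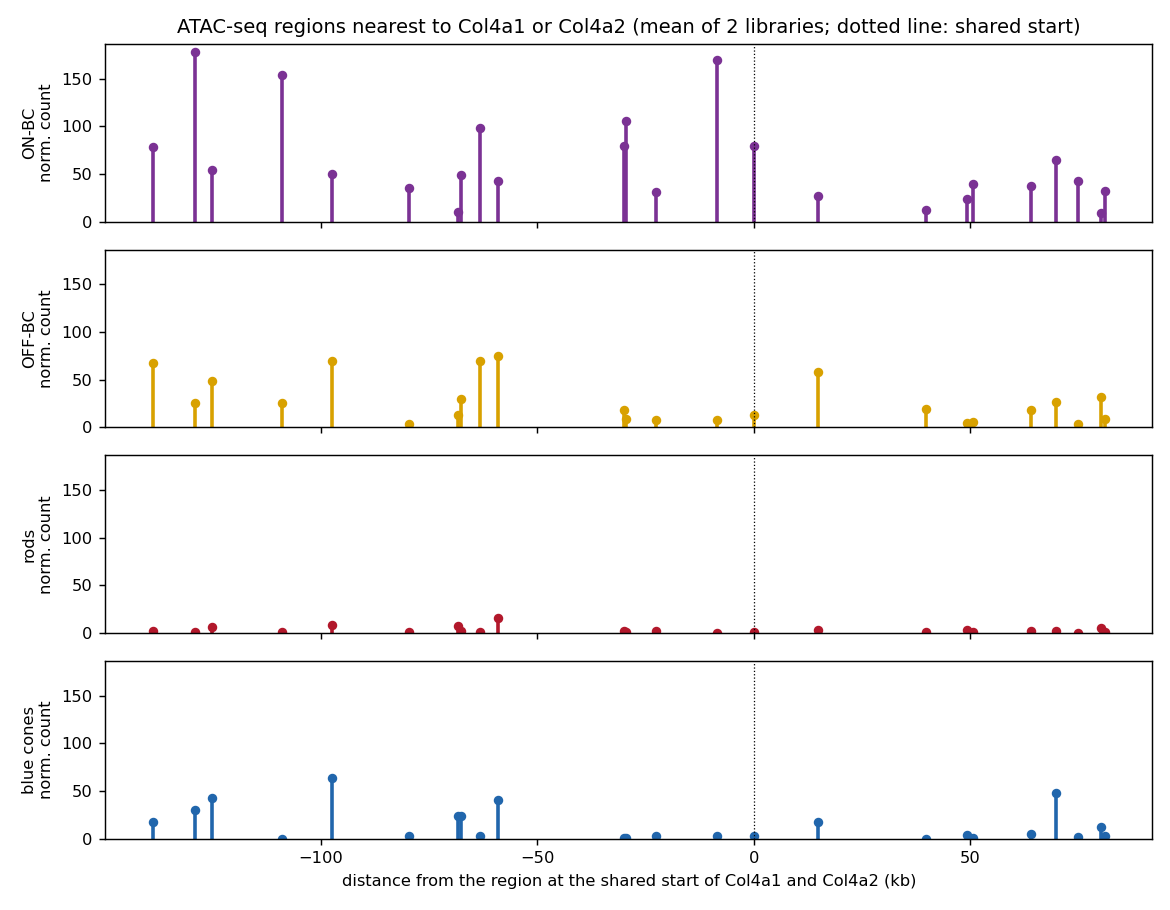
Mean normalized count of 2 libraries at the 24 ATAC-seq regions nearest to Col4a1 or Col4a2, plotted by distance (kb) from the region at their shared start (dotted line), for ON-BC, OFF-BC, rods and blue cones on 1 linear scale. Regions are tall in ON-BC on both sides of the start and low in rods.

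At several members the promoter region went the other way from the RNA. Itga4, whose RNA was lower in pan-BC, had a promoter region (chr2:79255244-79255443) counted at 27.2 and 49.6 (pan-BC), 56.7 and 49.8 (ON-BC), 45.8 and 30.2 (OFF-BC), 3.12 and 1.36 (rods) and 2.59 and 1.45 (blue cones), which was more open in pan-BC than in rods (3.60, SE 0.70, adjusted p = 0.00231) and blue cones (3.67, SE 0.70, adjusted p = 0.00316). The same held for Col19a1, whose promoter region was counted at 31.2 and 50.2 (pan-BC), 59.7 and 35.1 (ON-BC), 37.7 and 7.79 (OFF-BC), 0 and 0 (rods) and 1.3 and 0 (blue cones), with a difference of 5.34 (SE 0.76, adjusted p = 6.14e-05) in pan-BC against rods. The Itga3 promoter region (chr11:95076858-95077057), by contrast, was counted at 42.4 and 14.8 (pan-BC), 25.4 and 17.6 (ON-BC), 26.9 and 31.2 (OFF-BC), 129 and 166 (rods) and 54.4 and 65.8 (blue cones). It was less open in pan-BC than in rods (-2.49, SE 0.40, adjusted p = 0.00203), while its RNA was higher in pan-BC. Col4a3, the most abundant member in rods, had no region at its promoter in the table, and the nearest one lay at 21826 bp.

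At the X-linked pair, calls between the photoreceptors went the same way as the RNA, while the same regions were also open in bipolar libraries, where both genes were low. The promoter region of Col4a5 was counted at 49.6 and 66.7 (pan-BC), 71.7 and 45.4 (ON-BC), 48.5 and 36 (OFF-BC), 4.67 and 8.13 (rods) and 44 and 44.8 (blue cones) and was less open in rods than in blue cones (-2.66, SE 0.41, adjusted p = 0.00641). A region at 40115 bp downstream of the start of Col4a6 was counted at 34.4 and 38.2 (pan-BC), 35.8 and 48.3 (ON-BC), 44.5 and 13.6 (OFF-BC), 0 and 0 (rods) and 77.7 and 60.7 (blue cones), with a difference of -6.12 (SE 0.60, adjusted p = 5.52e-06) in rods against blue cones. At Col11a1, the region at -78813 bp was counted at 33.6 and 44.5 (pan-BC), 11.9 and 11.7 (ON-BC), 132 and 71.1 (OFF-BC), 0 and 0 (rods) and 2.59 and 0 (blue cones), higher in both OFF-BC libraries than in ON-BC, but its difference of -2.93 (SE 0.75, adjusted p = 0.0974) was not called.

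Open promoters were also found at members with no read or few reads. Col22a1, with no read in any of the 15 RNA-seq libraries, had a promoter region counted at 30.4 and 21.1 (pan-BC), 5.97 and 5.86 (ON-BC), 70.1 and 52.6 (OFF-BC), 145 and 126 (rods) and 176 and 223 (blue cones). It was less open in pan-BC than in rods (-2.37, SE 0.29, adjusted p = 0.000356) and less open in ON-BC than in OFF-BC (-3.16, SE 0.29, adjusted p = 0.000173). Itgb8, at 5.40 or less in every RNA-seq library, had a promoter region at -121 bp counted at 112 and 145 (pan-BC), 145 and 146 (ON-BC), 83.5 and 48.7 (OFF-BC), 1.56 and 0 (rods) and 7.77 and 8.67 (blue cones), with a difference of 6.33 (SE 0.49, adjusted p = 6.41e-08) in pan-BC against rods.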

How the data were processed

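By the study's methods, the bipolar RNA-seq libraries were prepared from sorted cells by SMARTer Ultra Low amplification and sequenced as single-end reads of 50 bp. The methods do not describe the preparation of the rod and blue cone libraries, which came from the earlier study. Per the submitters' processing notes and the study's methods, the authors used STAR 2.7.0d for alignment to GRCm38 and HTSeq 1.9 for counting over RefSeq genes, and for ATAC-seq Bowtie2 2.2.5, SAMtools 1.3, Picard 2.19.0 and MACS2 2.1.1. The Bowtie2 and SAMtools versions are those of the notes, and the methods give later ones. Whether HTSeq counted by strand is not given in the sources used here. The deposited signal values of both tables are counts that the authors divided by 1 size factor per library, and 100.0% of values above 0 were whole multiples of 1 read (within 0.01 read), so that reads could be recovered.

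Members and gene lists were chosen with earlier results of these data known. Tests had been planned on counts, but since the tables hold normalized values, limma 3.58.1 (R 4.3.3) was used on log2(normalized count + 1), which understates changes of low genes. Genes were kept by filterByExpr of edgeR 4.0.16 on the recovered reads. All libraries of an assay were fitted together with 1 level per population, treat with a trended prior tested against a log2 fold change of 1, and Benjamini-Hochberg adjustment ran over all genes or regions, with 0.05 as the threshold. The study's rule against carry-over of photoreceptor RNA, by which calls in bipolar cells are dropped where a photoreceptor type exceeds the other type by more than 16-fold and pan-BC by 4-fold or more (for ON-BC and OFF-BC, exceeds the enriched population by more than 16-fold), was applied and removed no call of a member. SDs are over the 3 libraries of a population, which the design describes as biological replicates.

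Values in every library are given for up to 6 called members per direction and comparison by size of the fold change, for the 3 members of each family with the highest level per kb of exon, and for laminin chains and beta subunits (by range where low). From each partner list, up to 3 called genes are named by size of fold change, and promoters are shown for the 4 members with the largest fold change whose promoter holds a called region. Regions were assigned to the nearest of 31441 RefSeq start sites. Promoter sequences came from RefSeq (GRCm38.p6), where 62 members had an entry, and 5 of 5 compared were identical to the genome. Alternatives were edgeR and DESeq2 1.42.0 on recovered reads, pseudocounts of 0.5 and 8, TMM or library totals as the scaling, no filter, the 2 populations alone, the replicate number as a block, no carry-over rule and each replicate left out. Counts limit precision at low levels, where a floor of 3 reads over a population was used for genes at 0. The 14 peak lists, which hold the authors' MACS2 calls per library, were not used here. Some items, among them 1 region and 1 motif, are not reported here.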

Additional observations from a re-analysis of the deposited data

How the results depend on the processing

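The number of members called by RNA-seq stayed within 1.5 times the reported number under every alternative run. It was 18 to 28 in pan-BC against rods (reported 25), 18 to 27 in pan-BC against blue cones (23), 13 to 19 in ON-BC against OFF-BC (14) and 8 to 13 in rods against blue cones (10). With each replicate left out in turn, the ranges were 23 to 25, 21 to 24, 13 to 14 and 9 to 11. Of the 72 calls, 53 held in every alternative run and 19, on 11 genes, were lost in at least 1, with no reversal, and 19 uncalled values were called in at least 1. The pseudocount of 8, which shrinks low genes by construction, lost 17 of them. Scaling by library totals moved the median of all genes by 0.35 in pan-BC against rods and 0.28 in pan-BC against blue cones.

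Counts of member regions depended more on the choices. Promoter regions alone, which are fewer by construction, gave 20, 15, 2 and 4 calls in the order above, in place of 289, 204, 45 and 53. By edgeR, 80 regions were called in ON-BC against OFF-BC and 82 in rods against blue cones, and the cause was not tested. With each replicate left out, which leaves 1 library that is assumed to vary like the others, the ranges were 240 to 262, 151 to 176, 16 to 34 and 35 to 43.

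With the replicate number as a block, the calls were 25, 24, 14 and 11 for genes and 289, 203, 43 and 51 for regions, and 16 for genes with ON-BC and OFF-BC alone. Deviations of same-numbered ON-BC and OFF-BC libraries correlated at -0.08, 0.22 and -0.06, and not every library correlated best with its own number, so that the numbers were not treated as pairs.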
